A study of Mus musculus with 6 samples.

Results

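The genes described here are 39 chromatin and DNA methylation modifiers in DN2 thymocytes with and without E2A. Their list was chosen with earlier results of these data known. Of the 39, 38 were read by at least 1 probe set that names the gene alone, among 18193 genes in all, and Suv39h1 was not analysed here. Where several probe sets named a gene, the one that was brightest on average was used. The samples were DN2 cells sorted from fetal thymus of FVB mice, 3 arrays labelled wild type and 3 labelled E2A deficient, on Affymetrix mouse expression arrays. DN2 cells carry neither CD4 nor CD8 and stand where progenitors commit to the T-cell lineage, and E2A names the transcription factors of the E protein family that Tcf3 encodes. The labels give neither the E2A allele, nor the fetal age, nor whether animals were pooled, and they do not say that replicates came from separate animals, so a p-value here covers the spread from array to array, which may be technical. The study asked which genes depend on E2A in developing T cells.

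The members act on chromatin in different ways. DNA methyltransferases place methyl groups on cytosine and TET enzymes oxidise them, Polycomb complexes and other histone methyltransferases write marks that histone demethylases remove, deacetylases and acetyltransferases act on histone acetylation, and remodellers use ATP to move nucleosomes. In the thymus these enzymes close off progenitor and alternative-lineage genes while T-lineage genes open. E2A binds short sequences called E boxes, written CANNTG, and recruits acetyltransferases such as the products of Ep300 and Crebbp.

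Intensities are the deposited values per probe set, on a linear scale with array medians between 77.4 and 79.0, and differences are E2A deficient minus wild type on log2(intensity + 1). Tcf3 itself read 477, 421 and 414 on the wild-type arrays and 236, 229 and 281 on the E2A-deficient arrays, and these groups did not overlap. The defining DN2 genes Kit, Il2ra and Cd44 had mean intensities of 287, 906 and 404 in wild type and 346, 1005 and 416 in E2A-deficient cells, and none of the 3 passed. Of 12 measured markers of DN2 and early T-lineage cells, however, 3 were called and 7 separated the groups. Thy1 (-1.32, limma adjusted p = 0.00158) and Notch1 (-1.46, 0.00215) fell, and Gata3 (1.45, 0.00215) rose. The part of these changes in the results below was not tested. Of 7 measured markers of innate lymphoid and NK cells 4 were higher in E2A-deficient cells, namely Icos, Rora, Zbtb16 and Il18r1. Ncr1 (0.07), Eomes (-0.08) and Tbx21 (0.07) were dim and not called. The summed intensity of all 7 was 677 to 797 in wild type and 2017 to 2350 in E2A deficient. In bulk samples a different mix of cells and different RNA per cell cannot be told apart, and the part of these markers in the results below was not tested. Summed B-cell markers were 550 to 584 and 526 to 549, and 6 of these 7 genes were below the upper quartile of all values. All 9 stromal markers were below it too. Of 10 myeloid and dendritic markers Lyz2 was called lower (-0.50, limma adjusted p = 0.0151). Mpo, at means of 907 in wild type and 1036 in E2A deficient, was not called. Of 8 markers of double-positive and mature T cells Cd5 was called lower (-0.70, limma adjusted p = 0.0171), and 5 separated the groups. Of 5 erythroid markers none was called and 3 separated the groups. Groups separated in 19.9% of all genes. The part of these markers was not tested either. The 5'/3' ratio of the beta-actin control was 0.104, 0.162 and 0.0981 in wild type and 0.165, 0.160 and 0.149 in E2A deficient, so 2 wild-type arrays stood lower than the other 4. Xist read 3055, 4456 and 58.7 in wild type against 1901, 1247 and 2154 in E2A deficient, so wild-type replicate 3 stood far below the other 5 arrays for this transcript of the inactive X chromosome. The Y-linked gene Eif2s3y read 204, 58.0 and 343 in wild type and 230, 339 and 208 in E2A deficient, so wild-type replicate 2 stood lowest there. The other 4 arrays had both transcripts well above these low values. Each result was also computed with Xist as a covariate and without each array in turn.

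Among the 38 members, 2 histone deacetylases rose and 2 genes fell in E2A-deficient cells. Hdac7 and Hdac1 were the members that rose, and the DNA methyltransferase gene Dnmt3b and the cofactor gene Arid5b were those that fell. These 4 are 10.5% of the members, against a background of 3.46% of all genes called in either direction (limma, Benjamini-Hochberg adjusted p under 0.05 over 18193 genes). The background was 2.40% for higher and 1.06% for lower, and 5.26% of members were called each way. Because 36 of the 38 members were brighter than the median gene, the share among genes brighter than the median, 6.31%, stands closer to theirs. The groups did not overlap in 36.8% of members, against 19.9% of all genes. An unadjusted p under 0.05 by limma was seen in 31.6% of members, against 15.7% of all genes. Neither the share without overlap nor this one was computed for brighter genes alone. The list was chosen with earlier results of these data known, so these shares describe it and are not a test of it. All 4 changes were moderate, under 1 on the log2 scale in size. Differences above 0 were seen in 24 of the 38, or 63.2%, against 56.5% of all genes. The median was 0.10 against 0.01 over all genes. Among genes brighter than the median, 62.7% were above 0 with a median of 0.06, and 22 of 36 such members were above 0. So the share of members above 0 was near that of bright genes. The lean of the members did not hold under quantile normalization, where 19 of 38 were above 0. With 1 array left out the members called numbered 2 without E2A-deficient replicate 1 (Dnmt3b and Hdac7) and 2 without E2A-deficient replicate 3 (Dnmt3b and Arid5b). Without any other array they numbered 3 or 4, but not always from the same 4 genes. Without wild-type replicate 2 they were Dnmt3b, Hdac7 and Hdac2. Without wild-type replicate 3 they were Dnmt3b, Hdac7, Arid5b and Cbx2. When the model held the beta-actin ratio, Hdac7 alone passed.

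**Figure D1:**
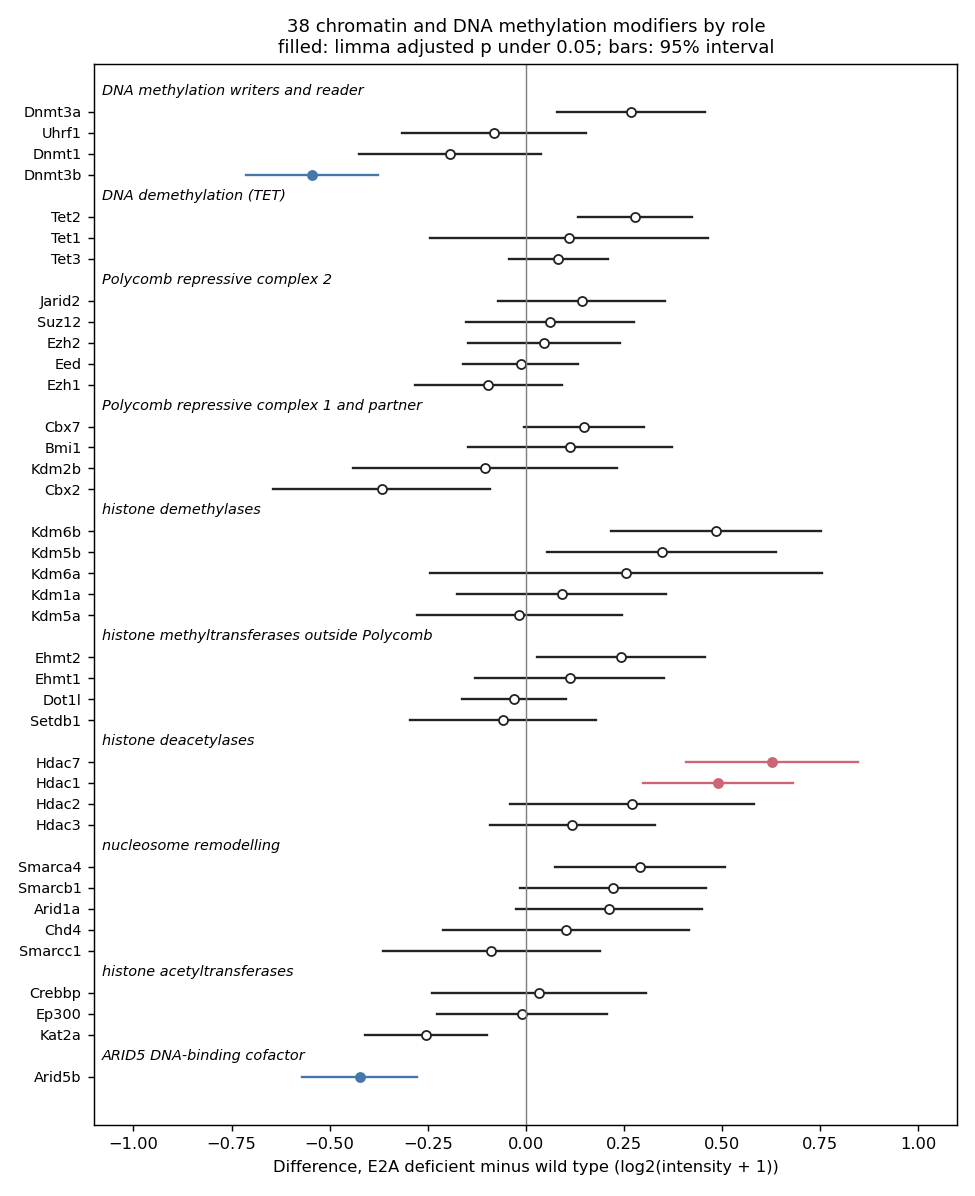
Difference in log2(intensity + 1), E2A deficient minus wild type, for 38 members grouped by role, with 95% intervals from limma (3 arrays per group). Filled points passed the adjusted threshold of 0.05: Hdac7 and Hdac1 lie to the right of 0, Dnmt3b and Arid5b to the left, and the Polycomb repressive complex 2 genes lie close to 0.

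The start of a gene can carry the E boxes that E2A binds, so the 250 bases before the RefSeq gene start (GRCm38.p6) are shown for called members, in lower case with CANNTG in capitals. The table of promoters held windows for 33 members, and Hdac1 was not among them. Dnmt3b has 1 window, chr2:153649199-153649448, plus strand. Arid5b has 1, chr10:68278727-68278976, minus strand. Hdac7 has several, and the only one with an E box was picked for it and is given, chr15:97844503-97844752, minus strand. The other Hdac7 windows hold no E box.
Dnmt3b: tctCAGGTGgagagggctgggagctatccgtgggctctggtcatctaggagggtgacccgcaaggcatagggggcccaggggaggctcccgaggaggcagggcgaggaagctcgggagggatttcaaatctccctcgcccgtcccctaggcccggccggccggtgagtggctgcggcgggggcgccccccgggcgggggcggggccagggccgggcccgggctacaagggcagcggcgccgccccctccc
Arid5b: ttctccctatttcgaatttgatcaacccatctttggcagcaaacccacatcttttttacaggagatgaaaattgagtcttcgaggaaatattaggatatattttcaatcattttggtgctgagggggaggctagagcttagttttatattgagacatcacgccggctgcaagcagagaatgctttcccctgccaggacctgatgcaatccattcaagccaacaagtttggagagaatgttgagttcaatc
Hdac7: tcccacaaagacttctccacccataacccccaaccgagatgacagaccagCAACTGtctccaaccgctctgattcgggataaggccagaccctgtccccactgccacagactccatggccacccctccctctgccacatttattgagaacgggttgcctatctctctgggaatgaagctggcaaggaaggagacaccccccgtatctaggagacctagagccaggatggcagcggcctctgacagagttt

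The Dnmt3b window holds 1 E box, CAGGTG, starting 247 bases before the gene start, and the Hdac7 window shown holds CAACTG at 200 bases. The Arid5b window holds none, which says only that these letters are not in it. CANNTG, searched on both strands, which read alike for this motif, is in 66.2% of all 32851 windows and in 47.9% of the 48 windows of members. The narrower form CAGCTG, which CANNTG contains, is in 13.0% of all windows and in 4.17% of those of members. The form CAGGTG, also contained in it and searched on both strands, is in 17.2% and 12.5%. The windows of members were richer in G and C than others, with a median of 67.4% against 52.4%. Dnmt3b had 75.2% and 21 CpG dinucleotides, the sites that DNA methyltransferases act on, while Arid5b had 42.0% and 4.

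Among the genes of DNA methylation, Dnmt3b fell and Dnmt1, Dnmt3a and Uhrf1 did not pass. Dnmt3b encodes a methyltransferase that places new methyl groups. Its intensity was 2257, 1947 and 2006 in wild type and 1443, 1369 and 1438 in E2A deficient. All 3 wild-type arrays lay above all 3 E2A-deficient arrays. The log2 difference was -0.54 (SE 0.0719, n = 3 per group, limma adjusted p = 0.00894), a level 1.46-fold higher in wild type. Its second probe set read 959, 883 and 856 against 648, 623 and 593, and it was called as well, at -0.53 (limma adjusted p = 0.0115 over all probe sets). Dnmt3b kept its call without each array in turn and with Xist as a covariate. The identifiers of both its probe sets mark them as common to several transcripts, so it had no value when such sets were dropped. When the model held the beta-actin ratio the difference was -0.48 and missed the threshold (limma adjusted p = 0.147, with 0.00315 to 0.147 over all its alternatives).

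Dnmt3a, the other methyltransferase for new sites, read 726, 711 and 643 in wild type and 893, 850 and 765 in E2A deficient. Here the groups lay apart and E2A deficient was the higher, opposite to Dnmt3b, but the difference of 0.27 (SE 0.0807) did not pass (limma adjusted p = 0.148). The other probe sets of Dnmt3a ranged from -0.08 to 0.32, and none passed. Dnmt1, which copies methylation after replication, read 2701, 2251 and 2060 against 2030, 2057 and 2003. Its groups just separated, and the difference of -0.19 (SE 0.0991) did not pass in the main setting, although it did after quantile normalization (-0.33, limma adjusted p = 0.0497; over its alternatives 0.0497 to 0.830). The other probe sets of Dnmt1 gave -0.07 and -0.08, overlapped between groups and did not pass. Uhrf1, which brings Dnmt1 to newly copied DNA, overlapped between groups (-0.08, SE 0.0997). Dnmt1 and Uhrf1 act with replication, and of 15 measured replication genes 0 rose or fell by limma, with 1 at an unadjusted p under 0.05 and a median difference of 0.03. Of 14 mitosis genes 0 rose or fell, with 2 at an unadjusted p under 0.05 and a median of 0.09.

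The TET genes, which start the removal of methyl groups, were dim and gave no call by limma, with 1 at an unadjusted p under 0.05, and all 3 had mean intensities below the upper quartile of all values, 134. Tet2 read 119, 118 and 115 in wild type and 141, 136 and 152 in E2A deficient. Every E2A-deficient array exceeded every wild-type array, and the difference of 0.28 (SE 0.0621) was the nearest to the threshold among uncalled members (limma adjusted p = 0.0637; over its alternatives 0.0615 to 0.450). The other probe set of Tet2, also dim, gave -0.10. Tet3 (0.08) and Tet1 (0.11) did not pass. At such signal the floor of the deposited values may compress changes, which was not tested.

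Genes of Polycomb repressive complex 2, which methylates lysine 27 of histone H3, showed no call among 5 by limma, and 0 had an unadjusted p under 0.05. Ezh2, the main catalytic subunit, read 1112, 1164 and 1253 in wild type and 1126, 1187 and 1337 in E2A deficient. Its difference was 0.05, with a 95% interval from -0.15 to 0.24. The core subunits Eed (-0.01, interval -0.16 to 0.13) and Suz12 (0.06, -0.15 to 0.28), the alternative catalytic subunit Ezh1 (-0.10, -0.28 to 0.09) and the accessory factor Jarid2 (0.14, -0.07 to 0.36) overlapped between groups. On the probe sets used, these intervals bound any change at less than 0.5 in either direction, but they do not show that the genes were equal. The other probe sets of Jarid2 gave 0.06 and 0.26, the latter with an interval from -0.07 to 0.60. Those of Suz12 ranged from -0.06 to 0.10, and none of these passed.

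Polycomb repressive complex 1, which can bind that mark, gave no call among 4 by limma either, with 1 at an unadjusted p under 0.05. Cbx2, a chromobox reader, read 334, 344 and 260 in wild type and 231, 227 and 263 in E2A deficient. Wild-type replicate 3 lay within the E2A-deficient range, and the difference of -0.37 (SE 0.118) did not pass (limma adjusted p = 0.171). Without that array it was -0.49 and passed (limma adjusted p = 0.0422), and with Xist as a covariate it was -0.43 and passed too (0.0325; over its alternatives 0.0325 to 0.367). The second probe set of Cbx2, a dim one, gave 0.03. Cbx7 (0.15), the ring-finger protein gene Bmi1 (0.11) and Kdm2b (-0.10), whose product recruits a variant of the complex to CpG-rich DNA, did not pass.

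Of 5 histone demethylase genes none passed by limma, with 2 at an unadjusted p under 0.05. Kdm6b, which removes methyl groups from lysine 27 of histone H3, read 582, 711 and 570 in wild type and 899, 944 and 761 in E2A deficient. No E2A-deficient array fell within the wild-type range, and its difference of 0.48 (SE 0.114) was about the size of that of Hdac1 with a wider spread (limma adjusted p = 0.0750). It passed when only genes brighter than the median were tested (0.0360) and with an intensity trend and robust variances (0.0488), over its alternatives 0.0360 to 0.499. Kdm6b also passed when the model held the replicate number. Its other probe sets gave 0.07 and -0.01, so the difference rests on 1 probe set. Kdm5b, a demethylase of lysine 4 of histone H3, had a difference of 0.35 (SE 0.125) with overlapping groups. Kdm1a (0.09) and Kdm5a (-0.02) lay near 0.

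Kdm6a, the X-linked relative of Kdm6b and a gene known to escape X inactivation, had the widest interval of the members. It read 249, 271 and 161 in wild type and 290, 212 and 301 in E2A deficient. The low value was wild-type replicate 3, the array on which Xist read 58.7. A second probe set of Kdm6a was lowest on the same array (77.9 against 133 and 167 on the other wild-type arrays). The difference of 0.26 (SE 0.213) became 0.03 without that array and 0.15 with Xist as a covariate, and it passed in none of these. A dim probe set of the same gene went the other way (-0.54) and did not pass either (limma adjusted p = 0.173). On that probe set wild-type replicate 3 was not the lowest of its group (93.1, 140 and 117). Another dim probe set was not lowest there either (74.6, 61.2 and 72.8). Why wild-type replicate 3 was low on the brighter probe sets was not tested.

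Of the 4 measured histone methyltransferase genes outside Polycomb none passed by limma, with 1 at an unadjusted p under 0.05. That gene was Ehmt2, which encodes a methyltransferase of lysine 9 of histone H3 and read 248, 295 and 241 in wild type and 295, 330 and 300 in E2A deficient. The groups touched without overlapping, the lowest E2A-deficient array being level with the highest wild-type array, and the difference was 0.24 (SE 0.0917, limma adjusted p = 0.251). Its partner Ehmt1 (0.11), Setdb1 (-0.06), which acts on the same lysine, and Dot1l (-0.03), which acts on lysine 79, overlapped between groups.

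All 4 histone deacetylase genes had differences above 0, and Hdac7 and Hdac1 passed. Hdac7 encodes a class IIa deacetylase that is abundant in thymocytes and leaves the nucleus on T-cell receptor signalling. It read 201, 184 and 226 in wild type and 296, 307 and 342 in E2A deficient. All E2A-deficient arrays lay above all wild-type arrays. The difference was 0.63 (SE 0.0931, limma adjusted p = 0.0147), or 1.54-fold, the largest among the members in size. Without E2A-deficient replicate 3 it was 0.57 and missed the threshold (limma adjusted p = 0.0527, with 0.00520 to 0.0527 over all its alternatives). With the mean of its probe sets it was 0.32 and passed, since the other probe set read 102, 103 and 101 against 105, 96.3 and 105 and gave 0.00.

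Hdac1, a class I deacetylase found in several corepressor complexes, read 443, 432 and 395 in wild type and 580, 553 and 654 in E2A deficient. All 3 E2A-deficient arrays were higher than any wild-type array. The difference was 0.49 (SE 0.0817, limma adjusted p = 0.0219), or 1.40-fold, on a single probe set. Leaving out 1 array ended the call 4 times, for wild-type replicate 2 (0.50, limma adjusted p = 0.0630) and 3 (0.44, 0.0653) and for E2A-deficient replicate 1 (0.51, 0.0699) and 3 (0.42, 0.0626). It also ended when the model held the replicate number. Holding the beta-actin ratio ended the call too (0.47, 0.229, with 0.0137 to 0.229 over all its alternatives). In all of these the difference stayed between 0.42 and 0.51. Hdac2, the close relative of Hdac1, had a difference of 0.27 (SE 0.133), and its wild-type replicate 2 (914) lay within the E2A-deficient range (852 to 944). Without that array the difference was 0.43 and passed (limma adjusted p = 0.04996; over its alternatives 0.04996 to 0.994). Hdac3 (0.12) did not pass.

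**Figure D2:**
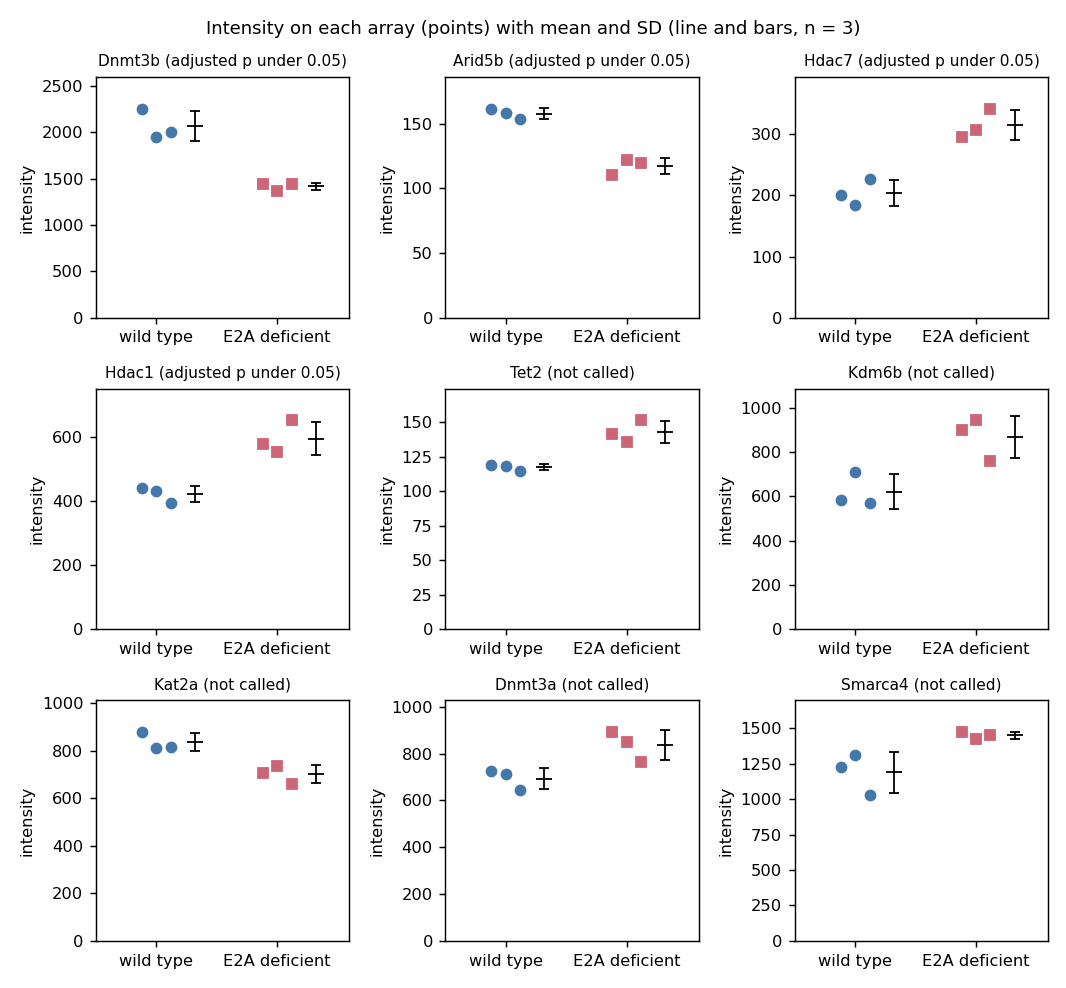
Intensity on each array (linear scale from 0) for the 4 called members and the 5 uncalled members with the smallest p, wild type as circles and E2A deficient as squares, with mean and SD of 3 arrays. In all 9 the 3 arrays of one group lie above those of the other, with wild type higher in Dnmt3b, Arid5b and Kat2a.

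Remodelling genes among the members gave no call by limma, with 1 of 5 at an unadjusted p under 0.05, although 4 of 5 had differences above 0. Smarca4, the ATPase of SWI/SNF complexes, read 1228, 1315 and 1032 in wild type and 1476, 1424 and 1452 in E2A deficient. No array crossed into the other group's range, and the difference of 0.29 (SE 0.0924) did not pass (limma adjusted p = 0.167). The SWI/SNF subunits Smarcb1 (0.22), Arid1a (0.21) and Smarcc1 (-0.09) and the NuRD ATPase gene Chd4 (0.10) did not pass. Both probe sets of Arid1a gave nearly the same difference, 0.21 and 0.23.

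Of the acetyltransferase genes, none passed by limma, with 1 of 3 at an unadjusted p under 0.05. That gene was Kat2a, the catalytic subunit of SAGA-type complexes, which read 879, 812 and 814 in wild type and 704, 736 and 660 in E2A deficient. Every wild-type array was the higher, and the difference of -0.25 (SE 0.0667) missed the threshold (limma adjusted p = 0.102). It passed after quantile normalization (-0.36, 0.0497; over its alternatives 0.0497 to 0.503). The other probe sets of Kat2a gave -0.12 and -0.04, overlapped between groups and did not pass. Ep300 and Crebbp, whose products E proteins recruit, gave -0.01 (95% interval -0.23 to 0.21) and 0.03 (-0.24 to 0.31).

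Arid5b, which encodes a DNA-binding protein that partners a histone demethylase, fell. It read 162, 158 and 153 in wild type and 110, 122 and 120 in E2A deficient. All 3 wild-type arrays were higher than any E2A-deficient array. The difference was -0.42 (SE 0.0623, limma adjusted p = 0.0142), a level 1.34-fold higher in wild type. Its 4 other probe sets, all dimmer, gave -0.15 to 0.11 and none passed, so with the mean of its probe sets the difference was -0.09 and the call was lost (limma adjusted p = 0.472, with 0.00905 to 0.472 over all its alternatives). Other losses were those with wild-type replicate 2 left out (-0.42, 0.0506), with E2A-deficient replicate 1 left out (-0.38, 0.0502) and when the model held the beta-actin ratio (-0.42, 0.161). The call was also lost when the model held the replicate number.

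In all, 34 members did not pass. Of these, 8 had an unadjusted p under 0.05, 6 of them higher and 2 lower, and in 10 the groups did not overlap. Over all 38 members, called ones included, the shares were 31.6% and 36.8%. Over all genes, bright or dim, they were 15.7% and 19.9%. For 28 of the 34 the 95% interval of the difference stayed within 0.5 of 0, which is 1.41-fold, and for none did it reach 1. Changes beyond that bound in those 28 lie outside the intervals of the probe sets used. Smaller changes were not resolved with 3 arrays per group.

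The members had 105 probe sets, of which 5 were called, against 1.79% of all probe sets. They were both of Dnmt3b and 1 each of Arid5b, Hdac7 and Hdac1. Of the 32 members with several probe sets, 14 had all on the same side of 0 and 18 did not. Dnmt3b was the only member called by more than 1.

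**Figure D3:**
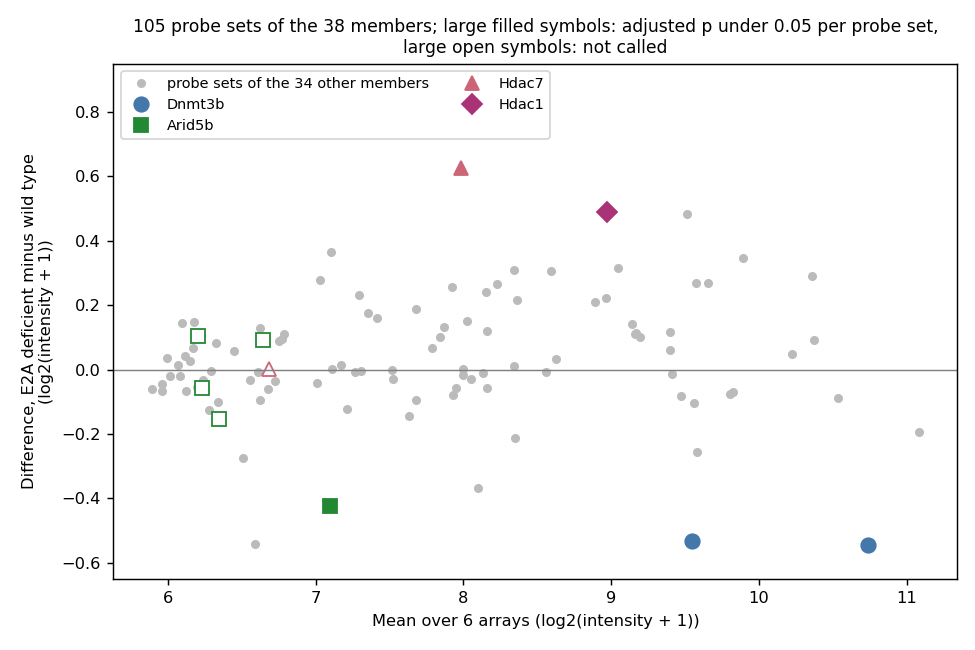
Difference (E2A deficient minus wild type) against mean level, both in log2(intensity + 1), for the 105 probe sets of the 38 members. The 2 probe sets of Dnmt3b lie together near -0.54 and -0.53, while the dimmer probe sets of Arid5b and Hdac7 lie near 0.

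**Figure D4:**
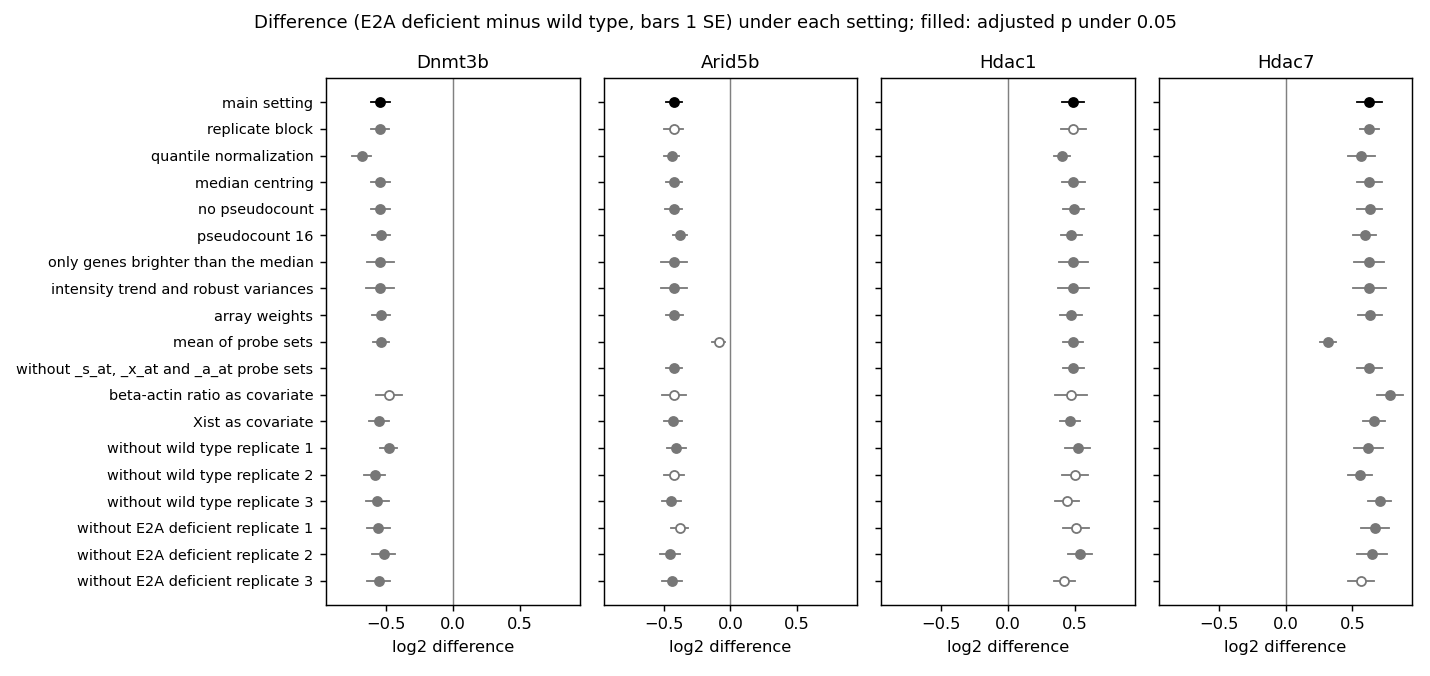
Difference in log2(intensity + 1) with 1 SE for the 4 called members under the main setting and each alternative, with filled points where the limma adjusted p was under 0.05. The sign held in every setting shown, Dnmt3b has no value without shared probe sets, and Hdac1 and Arid5b lost the call most often.

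Other genes of the same machinery gave 134 measured, of 142 listed, and 7 were called, 5.22% against 3.46% of all genes. This list too was brighter than most genes, with a median level of 7.99 on the log2 scale against 6.56, and its share lies below the 6.31% called among genes brighter than the median. Of these 5 rose and 2 fell, and the median difference was 0.05. The remodelling genes held most of them. Chd7, an ATPase of the CHD family, read 88.0, 82.0 and 84.7 in wild type and 238, 329 and 328 in E2A deficient. The groups were far apart, and the difference of 1.79 (SE 0.126, limma adjusted p = 8.18e-04) passed in each of 18 alternatives. It was the only 1 of the 7 to pass when the model held the beta-actin ratio. Its wild-type signal was near the array medians, so the fold may be understated.

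Of the NuRD complex, which joins Hdac1 or Hdac2 with a CHD ATPase and an MTA protein, members moved in both directions. Mta3 fell from 970, 916 and 707 to 499, 341 and 433. The difference was -1.03 (SE 0.165, limma adjusted p = 0.0188). Leaving out wild-type replicate 1 (-0.94, 0.0516), wild-type replicate 2 (-0.98, 0.0704) or E2A-deficient replicate 3 (-1.05, 0.0667) ended the call, as did dropping probe sets common to several transcripts (-0.59, 0.130). Over all its alternatives the limma adjusted p was 0.00117 to 0.150. Chd3, a relative of Chd4, rose by 0.50 (SE 0.0841, limma adjusted p = 0.0232) but passed without only 1 of the 6 arrays, wild-type replicate 2. Without the others its limma adjusted p was 0.0501 to 0.0892, and over all its alternatives 0.0146 to 0.235. The NuRD genes Mta1 (0.03), Mta2 (0.16), Mbd3 (0.29), Gatad2a (0.25), Gatad2b (0.01), Rbbp4 (0.10) and Rbbp7 (0.11) did not pass.

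Smarca2, the alternative ATPase to Smarca4, was called at 0.55 (SE 0.0980, limma adjusted p = 0.0282), but on a probe set whose identifier marks it as common to several transcripts. Its other probe set gave -0.17, the opposite sign, and did not pass. Leaving out wild-type replicate 3 or any of the 3 E2A-deficient arrays ended the call (limma adjusted p 0.0763 to 0.0929; over its alternatives 0.00756 to 0.538). Yaf2, a Polycomb repressive complex 1 component, was called at 0.54 (SE 0.0862, limma adjusted p = 0.0190), and leaving out wild-type replicate 2 (0.0642) or 3 (0.0501), or E2A-deficient replicate 1 (0.0730) or 2 (0.0697), ended the call, over its alternatives 0.0111 to 0.224. The probe set of Yaf2 carries the same identifier mark as that of Smarca2, and Yaf2 had no value when such sets were dropped.

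The 2 called histone methyltransferase genes belong to lysine 4 complexes. Dpy30, a shared core subunit, rose from 913, 887 and 889 to 1264, 1181 and 1159. The groups were apart and the difference was 0.42 (SE 0.0587, limma adjusted p = 0.0115). It passed without each array in turn, but not after quantile normalization (0.30, limma adjusted p = 0.0796; over its alternatives 0.00483 to 0.144). Kmt2a, a catalytic subunit, fell from 239, 246 and 245 to 198, 188 and 184 (-0.36, SE 0.0562, limma adjusted p = 0.0177). Leaving out wild-type replicate 2 (0.0590) or 3 (0.0560), or E2A-deficient replicate 2 (0.0698) or 3 (0.0737), ended the call, over its alternatives 0.0160 to 0.157. In the lists of DNA methylation readers, Polycomb repressive complex 2 partners, demethylases, deacetylases, acetyltransferases and bromodomain readers, heterochromatin proteins and ARID genes, no further gene passed by limma. By unadjusted p under 0.05 these lists held 2 of 12, 0 of 6, 2 of 12, 2 of 12, 1 of 9, 0 of 5 and 1 of 5 genes, against 15.7% of all genes. The lists with called genes held 5 of 17 for Polycomb repressive complex 1, 5 of 24 for methyltransferases and 9 of 32 for remodelling.

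**Figure D5:**
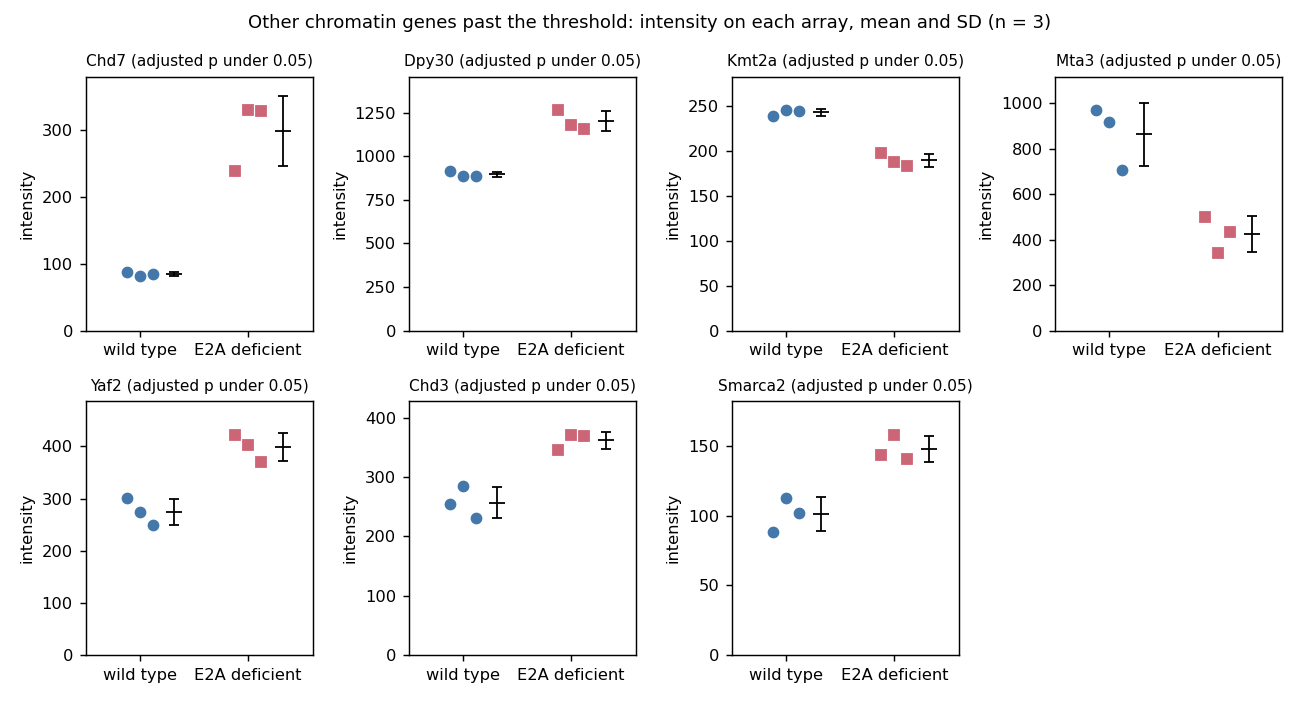
Intensity on each array (linear scale from 0) for the 7 called genes of the wider chromatin list, wild type as circles and E2A deficient as squares, with mean and SD of 3 arrays. Chd7, Dpy30, Yaf2, Chd3 and Smarca2 are higher in E2A deficient, Kmt2a and Mta3 lower.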

How the data were processed

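The authors deposited 1 intensity per probe set and array. RMA (background correction, quantile normalization and probe summary) is the tool named in the submitters' processing notes, with version, later scaling and filters not given in the sources used here. RNA was amplified through a repeated in vitro transcription, per the labels' protocols, which favours 3' ends. The values were linear, 41.4 to 18824, and log2(intensity + 1) was analysed with no filter. Of 45101 probe sets, 64 controls were left out, and 34945 name 1 gene in the array annotation, 932 several and 9160 none, giving 18193 genes. A gene took its probe set with the highest mean log2 value.

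The comparison used limma 3.58.1 under R 4.3.3, a moderated linear model per gene with a two-sided test, Benjamini-Hochberg adjustment over all genes and a threshold of 0.05. The same model was run per probe set over 45037 probe sets. It was tested on simulated data. Precision is limited by having 3 arrays per group. Members and lists were chosen with earlier results of these data known. Every member is named, with values per array for called members, for the 5 uncalled ones with the smallest p and for others where a result turns on them, the last chosen after their values were seen, and each called gene of the wider list is named. The labels do not say that replicate numbers pair the arrays, and the main model did not pair them. Alternatives tried each array left out, a block for the replicate number, quantile normalization, median centring, pseudocounts of 0 and 16, bright genes only, an intensity trend, array weights, other probe-set rules, and the beta-actin ratio or Xist as a covariate. Figures used matplotlib 3.10.9.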

Additional observations from a re-analysis of the deposited data

How the results depend on the processing

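Each of the 4 called members kept its sign in all its alternatives, and no member reversed a call. Members called higher numbered 2, which became 1 with the beta-actin ratio in the model and 3, with Kdm6b added, among bright genes only and with the intensity trend, and with 1 array left out they ranged from 0 to 2. Members called lower numbered 2, which became 1 with the replicate block, 4 with quantile normalization, 3 with Xist as a covariate (Cbx2 added), 1 with the mean of probe sets, 1 without shared probe sets and 0 with the beta-actin ratio, and ranged from 1 to 3 with 1 array left out (3 without wild-type replicate 3, Cbx2 again). After quantile normalization 4 of the 6 called members were lower, against 2 of 4, and over all genes 360 were higher and 257 lower, against 437 and 193. The median member difference was 0.00 there, against 0.10. With the beta-actin ratio the calls over all genes were 72 higher and 51 lower, and with 1 array left out 216 to 368 and 104 to 165. Other chromatin genes higher numbered 5, then 1 with the beta-actin ratio, 6 among bright genes only, 4 with quantile normalization, with Xist as a covariate or without shared probe sets, and 2 to 6 with 1 array left out. Those lower numbered 2, then 1 with the replicate block, 1 with the intensity trend, 1 with the mean of probe sets, 1 without shared probe sets, 0 with the beta-actin ratio and 0 to 2 with 1 array left out. Member probe sets called numbered 5, then 6 with Xist as a covariate, 3 with the replicate block, 3 with the intensity trend, 0 with the beta-actin ratio and 0 to 3 with 1 array left out. The cause of these changes was not tested, apart from the fewer arrays where 1 was left out.

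Same-numbered arrays did not deviate together (correlations of deviations 0.02, 0.02 and -0.04), so the numbers name arrays only. With the replicate block 459 genes were called in place of 630, and Hdac1 (limma adjusted p = 0.0753) and Arid5b (0.0538) were not called while Kdm6b (0.0444) was. Members dimmer than the upper quartile, 4 of 38, are limited by signal over background. Dnmt3b, Dnmt1 and Hdac3 had no value without shared probe sets, and Cbx7 and Tet3 none among genes brighter than the median.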
